A study of Mus musculus with 12 samples.

Results

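Cytotoxic lymphocytes were followed in mouse heart through 10 genes, Gzma, Gzmb, Prf1, Nkg7, Klrd1, Klrk1, Klrb1c, Cd3e, Cd8a and Ncr1, out of 53465 genes in the deposited table. These genes were chosen by symbol, with values of the same libraries in view, Gzma among them. Their levels and fold changes are therefore given as descriptions with standard errors and without p-values, and tests are read only for other gene lists. RNA of the left ventricle was sequenced from 4 groups of 3 male mice on a C57BL/6J background, with 1 library per mouse. A17fl/fl mice carried floxed Adam17 alleles and A17α-MHCKO littermates carried the same alleles plus a Cre recombinase driven by the cardiomyocyte promoter α-MHC, which removes exon 2 of Adam17 in cardiomyocytes and leaves the gene in other cells, lymphocytes included. Mice entered the experiment at 8 weeks of age and received 4 intraperitoneal injections of normal saline (NS) or of doxorubicin (DOX), an anthracycline used against tumours and toxic to the heart, at 5 mg/kg each, on a weekly schedule that ended on day 21, and hearts were taken 4 weeks after the last injection. Groups are named by genotype and treatment, A17fl/fl or A17α-MHCKO with + NS or + DOX.

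Cytotoxic T cells and natural killer (NK) cells kill target cells by releasing granules. Perforin, encoded by Prf1, opens the target membrane, and the serine proteases granzyme A and granzyme B, encoded by Gzma and Gzmb, enter through it, while Nkg7 is a membrane protein of the granules. Ncr1 (NKp46), Klrb1c (NK1.1), Klrk1 (NKG2D) and Klrd1 (CD94) are receptors carried by NK cells, the last pair also by activated CD8 T cells, and Cd3e and Cd8a encode parts of the T cell receptor complex and of its CD8 co-receptor. In the healthy heart such cells are few beside cardiomyocytes, fibroblasts, endothelial cells and macrophages, and in RNA of whole tissue fewer cells and less RNA per cell cannot be told apart.

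The promoter sequences of 3 granule genes, Gzma, Gzmb and Nkg7, and of the NK receptor gene Ncr1 are printed to show which letters stand before these genes. RefSeq promoter windows on GRCm38.p6, from 250 bases before to 50 bases after the start of a gene, were found for 9 of the 10 members, all but Klrd1. The windows were searched on both strands for TGTGGT, a core bound by RUNX factors, for TCACAC, part of the site of T-box factors such as T-bet, and for GGAAGT, a core of ETS factors, and these do not share letters. TGTGGT or its complement was found in 7 of 9 member windows and in 16.8% of 32851 windows of the same length, TCACAC in 3 of 9 and 14.5%, and GGAAGT in 3 of 9 and 23.8%. The 250 bases before the start follow, 5′ to 3′ along each gene, with the motif letters in capitals, for Gzma (chr13:113100982-113101231, minus strand), Gzmb (chr14:56262335-56262584, minus strand), Nkg7 (chr7:43436888-43437137, plus strand) and Ncr1 (chr7:4337465-4337714, plus strand, the first of its 2 entries).
Gzma: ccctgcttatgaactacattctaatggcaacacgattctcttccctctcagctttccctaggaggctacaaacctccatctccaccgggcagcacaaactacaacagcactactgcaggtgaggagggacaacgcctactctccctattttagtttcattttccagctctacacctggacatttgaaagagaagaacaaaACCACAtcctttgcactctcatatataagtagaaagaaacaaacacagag
Gzmb: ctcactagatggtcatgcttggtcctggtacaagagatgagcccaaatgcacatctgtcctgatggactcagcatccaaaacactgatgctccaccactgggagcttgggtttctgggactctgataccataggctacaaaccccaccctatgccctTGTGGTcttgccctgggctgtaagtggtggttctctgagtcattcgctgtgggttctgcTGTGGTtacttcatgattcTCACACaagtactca
Nkg7: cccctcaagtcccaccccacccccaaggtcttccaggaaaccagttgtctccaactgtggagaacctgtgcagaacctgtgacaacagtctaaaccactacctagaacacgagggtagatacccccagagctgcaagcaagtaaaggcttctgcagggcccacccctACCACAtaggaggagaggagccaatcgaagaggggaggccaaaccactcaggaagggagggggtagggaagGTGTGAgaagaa
Ncr1: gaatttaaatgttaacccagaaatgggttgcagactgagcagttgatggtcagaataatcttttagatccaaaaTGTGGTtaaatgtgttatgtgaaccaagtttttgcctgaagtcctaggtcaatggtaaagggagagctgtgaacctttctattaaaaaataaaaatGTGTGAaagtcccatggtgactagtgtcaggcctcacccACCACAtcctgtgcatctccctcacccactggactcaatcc

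In the Gzma window the single match lay 50 bases before the start, and in the Gzmb window the matches lay 93 and 34 bases (TGTGGT) and 15 bases (TCACAC) before it. A match is a description of the letters and not of binding, which was not measured here.

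Total counts were between 15950717 and 21725076 per library, so that 1 count was worth 0.0431 to 0.0649 CPM, counts scaled to the size of the library by the trimmed mean of M-values (TMM). Adam17 was at 43.5 to 70.8 CPM in the 6 A17fl/fl libraries and at 27.8 to 36.7 CPM in the 6 A17α-MHCKO libraries, without overlap; reads outside exon 2 and from other cells still count towards it. The library A17fl/fl + NS replicate 1 stood apart, with a mean correlation of 0.888 with the other libraries against 0.937 to 0.959 for the rest. The next lowest were replicates 3 and 2 of the same group, at 0.937 and 0.945, beside 0.95 to 0.959 in the other groups. Neutrophil markers summed to 3013 CPM in replicate 1 against 16.4 to 89.6 in the other 11 libraries. Its markers of red cells and platelets summed to 3772 CPM against 549.7 to 1971. Where leaving out this library moved a value widely or changed a call, the value without it stands beside the result.

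All 10 members had their lowest group mean CPM in A17fl/fl + NS, and 8 had their highest in A17fl/fl + DOX, the exceptions being Cd8a, highest in A17α-MHCKO + NS, and Klrd1, highest in A17α-MHCKO + DOX. Together the members held 13, 42 and 65 counts in the A17fl/fl + NS libraries, 193, 202 and 158 in A17fl/fl + DOX, 116, 284 and 81 in A17α-MHCKO + NS and 64, 69 and 224 in A17α-MHCKO + DOX. The summed level was 2.44 ± 1.66, 11.4 ± 1.43, 8.03 ± 3.85 and 7.36 ± 5.39 CPM in the same order (mean ± SD, n = 3). Replicates 1 and 2 of A17fl/fl + NS were below the other 9 libraries and replicate 3, at 4.07 CPM, was level with the lowest of them, A17α-MHCKO + DOX replicate 1 at 4.02 CPM, while the other groups overlapped. Within A17α-MHCKO + DOX all 10 members were highest in replicate 3, and within A17α-MHCKO + NS 8 of 10 were highest in replicate 2.

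**Figure D1:**
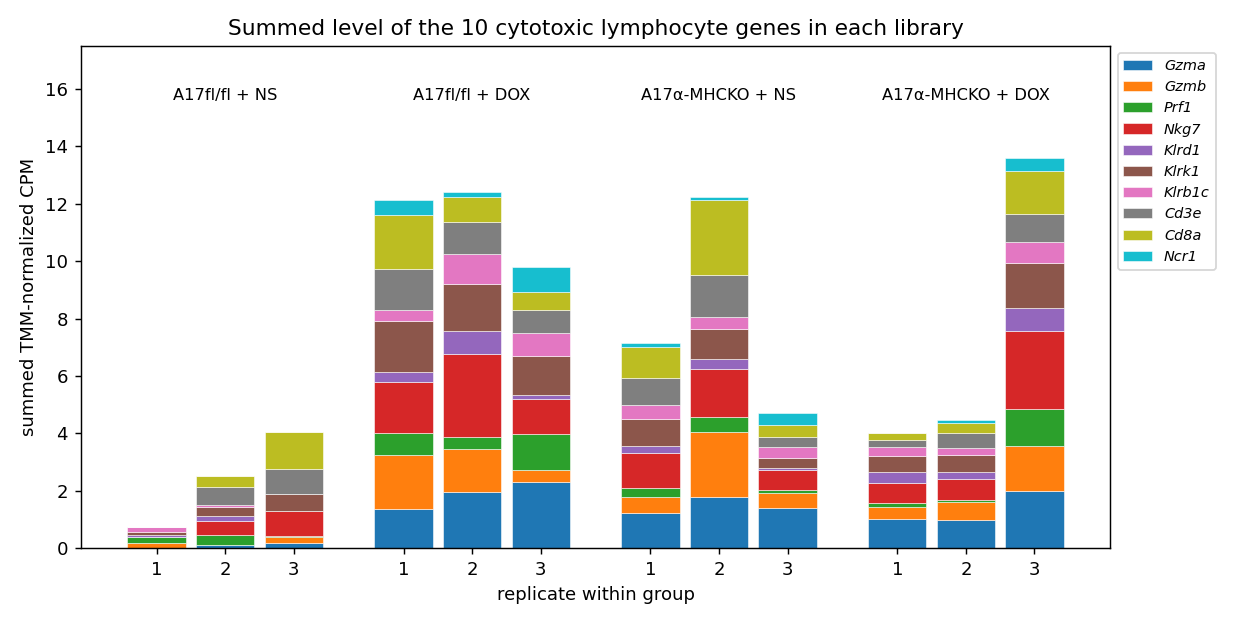
Summed TMM-normalized CPM of the 10 genes (y axis) in each library (x axis, replicate within group), with 1 colour per gene. The A17fl/fl + NS bars, at 0.749, 2.51 and 4.07 CPM, lie below all A17fl/fl + DOX bars, and replicate 3 of A17α-MHCKO + DOX reaches 13.6 CPM beside 4.02 and 4.48 in its group.

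Gzma, which encodes granzyme A, had 0, 2 and 3 counts in A17fl/fl + NS, 22, 32 and 37 in A17fl/fl + DOX, 20, 41 and 24 in A17α-MHCKO + NS and 16, 15 and 33 in A17α-MHCKO + DOX. The 3 saline floxed libraries were below all 9 others, and the other groups overlapped with each other. The group levels of Gzma were 0.102 ± 0.095, 1.88 ± 0.463, 1.47 ± 0.275 and 1.33 ± 0.584 CPM (mean ± SD, n = 3). The order of levels was A17fl/fl + DOX, A17α-MHCKO + NS, A17α-MHCKO + DOX and A17fl/fl + NS, and in this order only the last step exceeded the spread between mice. Gzma made up 4.17% of the members' pooled counts in A17fl/fl + NS against 16.5% in A17fl/fl + DOX, 17.7% in A17α-MHCKO + NS and 17.9% in A17α-MHCKO + DOX. There were 0.2 Gzma counts for each Cd3e count in A17fl/fl + NS against 1.69 in A17fl/fl + DOX, 1.55 in A17α-MHCKO + NS and 2.29 in A17α-MHCKO + DOX. Both measures pool 3 mice, and those of A17fl/fl + NS rest on 5 Gzma counts, with both genes at 0 in replicate 1. By mouse the share was 0, 4.76 and 4.62% in A17fl/fl + NS and 11.4 to 29.6% elsewhere. Values of Gzma were in view when it was picked, so these are descriptions.

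Gzmb, which encodes granzyme B, had 3, 0 and 3 counts in A17fl/fl + NS, 30, 24 and 7 in A17fl/fl + DOX, 9, 53 and 9 in A17α-MHCKO + NS and 7, 10 and 26 in A17α-MHCKO + DOX. As for Gzma, the saline floxed libraries were below the other 9, but single mice set the other means, above all the A17α-MHCKO + NS replicate with 53 counts. Prf1, the perforin gene, had 4, 6 and 1 counts in A17fl/fl + NS, 12, 7 and 20 in A17fl/fl + DOX, 5, 12 and 2 in A17α-MHCKO + NS and 2, 1 and 21 in A17α-MHCKO + DOX. For Prf1 the A17fl/fl groups did not overlap, and both A17α-MHCKO groups overlapped with A17fl/fl + NS. Nkg7, the granule membrane gene, had 0, 8 and 14 counts in A17fl/fl + NS, 28, 47 and 20 in A17fl/fl + DOX, 20, 39 and 12 in A17α-MHCKO + NS and 11, 11 and 45 in A17α-MHCKO + DOX. Per length, in fragments scaled to gene length and library size (FPKM), Gzma at 1.43 and Nkg7 at 1.23 were the highest members in A17fl/fl + DOX, followed by Gzmb at 0.881, whereas Prf1 was at 0.182.

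Among the NK receptors, Ncr1 was at 0 counts in all 3 A17fl/fl + NS libraries, at 8, 3 and 14 in A17fl/fl + DOX, at 2, 3 and 7 in A17α-MHCKO + NS and at 0, 2 and 7 in A17α-MHCKO + DOX. Against a floor of 3 counts over the saline floxed group, pooled Ncr1 was 8.64-fold higher in A17fl/fl + DOX and 3.54-fold in A17α-MHCKO + NS. Lower 95% limits of the pooled ratios, from counting error alone, were 6.52 and 2.46. The spread between mice is not in them. Klrb1c, the NK1.1 gene, had 3, 1 and 0 counts in A17fl/fl + NS, 6, 17 and 13 in A17fl/fl + DOX, 8, 10 and 7 in A17α-MHCKO + NS and 5, 4 and 12 in A17α-MHCKO + DOX. As for the granzymes, its 3 saline floxed libraries were below the other 9, with the caution that a same-strand gene, Gm44511, overlaps its exons in GENCODE M21. Klrk1, the NKG2D gene, had 2, 5 and 9 counts in A17fl/fl + NS, 28, 27 and 22 in A17fl/fl + DOX, 15, 24 and 6 in A17α-MHCKO + NS and 9, 9 and 26 in A17α-MHCKO + DOX. Klrk1 was the most even member in A17fl/fl + DOX, at 1.59 ± 0.204 CPM (SD, n = 3). Klrd1, the CD94 gene, had 1, 3 and 0 counts in A17fl/fl + NS and 6, 13 and 2 in A17fl/fl + DOX, so that these groups overlapped, and 4, 8 and 1 and 6, 4 and 13 in A17α-MHCKO mice after NS and DOX.

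The T cell genes had the smallest differences between the A17fl/fl groups. Cd3e, a chain of the CD3 complex, had 0, 11 and 14 counts in A17fl/fl + NS, 23, 18 and 13 in A17fl/fl + DOX, 15, 34 and 6 in A17α-MHCKO + NS and 4, 8 and 16 in A17α-MHCKO + DOX. Cd8a, the CD8 α chain, had 0, 6 and 21 counts in A17fl/fl + NS, 30, 14 and 10 in A17fl/fl + DOX, 18, 60 and 7 in A17α-MHCKO + NS and 4, 5 and 25 in A17α-MHCKO + DOX. Every pair of groups overlapped for Cd8a, and both genes were at 0 in the saline floxed library that stood apart. An antisense gene, Gm48719, overlaps Cd3e in GENCODE M21, and whether the counting used strand is not given in the sources used here.

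**Figure D2:**
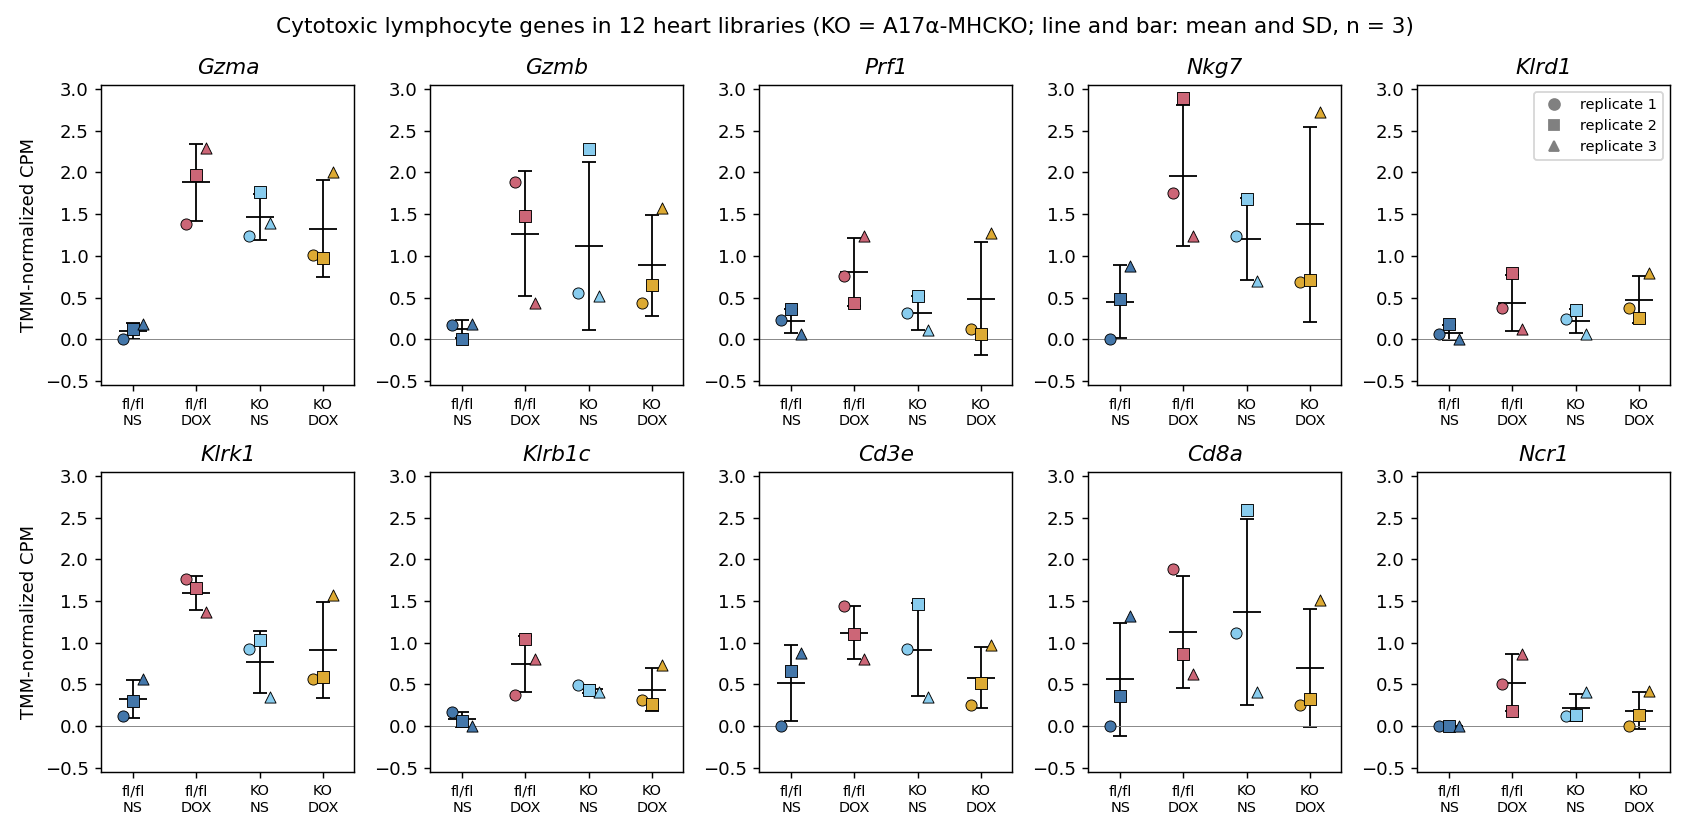
TMM-normalized CPM (y axis) of each member in the 4 groups (x axis; KO stands for A17α-MHCKO), with 1 point per library, shaped by replicate number, and the mean and SD (n = 3). For Gzma, Gzmb and Klrb1c the A17fl/fl + NS points lie below those of the other 9 libraries, whereas Cd8a overlaps between all groups.

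The effect of doxorubicin in A17fl/fl mice was read from an edgeR fit of all 4 groups, in which 16101 genes and 8 of the 10 members passed the filter on low counts; Klrd1 and Ncr1 did not. A member that passed through the groups where it is high had to differ, and the counts below carry that limit. The log2 fold changes were 4.13 ± 0.64 for Gzma, 3.32 ± 0.97 for Gzmb, 3.11 ± 0.77 for Klrb1c, 2.28 ± 0.61 for Klrk1, 2.12 ± 0.86 for Nkg7 and 1.85 ± 0.98 for Prf1 (± SE). They were 1.13 ± 0.85 for Cd3e and 1.01 ± 1.06 for Cd8a, for which the standard error exceeds the difference. The median of the 8 was 2.20, beside -0.04 over all genes tested. A gene was called by the limits of the study (log2 fold change beyond 1 in either direction, p before adjustment below 0.05, and mean FPKM above 1 in at least 1 of the groups), which Gzma and Nkg7 met, 2 of 8, beside 0.596% of all genes called higher. In 6 of the 8 the groups did not overlap, with DOX higher, beside 7.15% of all genes. Since values of these libraries were in view when the members were picked, nothing is read from these counts. The same holds for the counts of members in the comparisons below. Without A17fl/fl + NS replicate 1 the fold change of Gzma was 3.55, that of Nkg7 1.53 and that of Klrb1c 4.31. Cd3e was then at 0.54 and Cd8a at 0.42. The median over the 9 members tested without that library was 1.89, and 2 of 9 met the limits.

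Between genotypes after saline, the members were again higher in the group that is not A17fl/fl + NS. Log2 fold changes, A17α-MHCKO + NS over A17fl/fl + NS, were 3.77 ± 0.64 for Gzma, 3.18 ± 0.97 for Gzmb and 2.38 ± 0.79 for Klrb1c (± SE). Those of Nkg7, Cd8a and Klrk1 were 1.43 ± 0.87, 1.32 ± 1.04 and 1.24 ± 0.62, and those of Cd3e and Prf1 0.86 ± 0.85 and 0.55 ± 1.02. The median was 1.37, beside -0.03 over all genes. Gzma alone of the 8 met the limits, beside 0.671% of all genes called higher. In 3 of 8 (Gzma, Gzmb and Klrb1c) the groups did not overlap, beside 5.52% of all genes. As above, nothing is read from these counts. This comparison and that of doxorubicin in A17fl/fl mice share the 3 A17fl/fl + NS libraries, so that a low value there raises both. Without replicate 1 of that group Gzma was at 3.20, Gzmb at 3.54, and Klrb1c at 3.57. Nkg7 and Klrk1 were at 0.84 each, Cd8a at 0.73, Cd3e at 0.27, and the median over the 9 members then tested at 0.84.

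In A17α-MHCKO mice the members did not separate DOX from NS. Log2 fold changes lay between -0.98 ± 1.02 (Cd8a) and 0.60 ± 0.95 (Prf1), with Gzma at -0.15 ± 0.48 and a median of -0.08 beside 0.004 over all genes. No member met the limits in edgeR or in DESeq2, beside 0.658% of all genes called. Of the 8, 0 had an unadjusted p under 0.05 in edgeR, beside 6.42% of all genes. In no member were the groups apart, beside 16.9% of all genes. The members were picked with values in view, so nothing is read from these counts. Leaving out A17α-MHCKO + DOX replicate 3, the mouse with 224 member counts, moved the median to -0.92, and leaving out A17α-MHCKO + NS replicate 2 moved it to 0.51, so that its sign rested on single mice.

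After doxorubicin all 8 tested members were lower in A17α-MHCKO than in A17fl/fl mice, by log2 values from -0.50 ± 0.78 (Gzmb) to -0.93 ± 0.85 (Cd3e), with Gzma at -0.50 ± 0.48. The median was -0.69, beside 0.007 over all genes. No member met the limits in edgeR or in DESeq2, beside 0.205% of all genes called. Of the 8, 0 had an unadjusted p under 0.05 in edgeR, beside 2.7% of all genes, and again nothing is read from these counts. In no member were the groups apart, beside 14.1% of all genes, since replicate 3 of A17α-MHCKO + DOX lay within or above the range of the A17fl/fl + DOX mice in each of the 8. Without that library the median was -1.46. The doxorubicin effect in A17α-MHCKO minus that in A17fl/fl was negative for all 8, at -4.27 ± 0.81 for Gzma, -3.68 ± 1.25 for Gzmb and -3.14 ± 1.01 for Klrb1c, with a median of -2.02 beside 0.06. The A17fl/fl + NS libraries enter this difference too, so that a low value there lowers it, and it is not separate from the comparisons above. Gzma met the limits for this difference, 1 of 8, beside 0.658% of all genes called lower, and nothing is read from this count either. Without A17fl/fl + NS replicate 1 Gzma stood at -3.70, Gzmb at -4.04 and Klrb1c at -4.33. The median was then -1.40, over 9 tested members instead of 8.

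**Figure D3:**
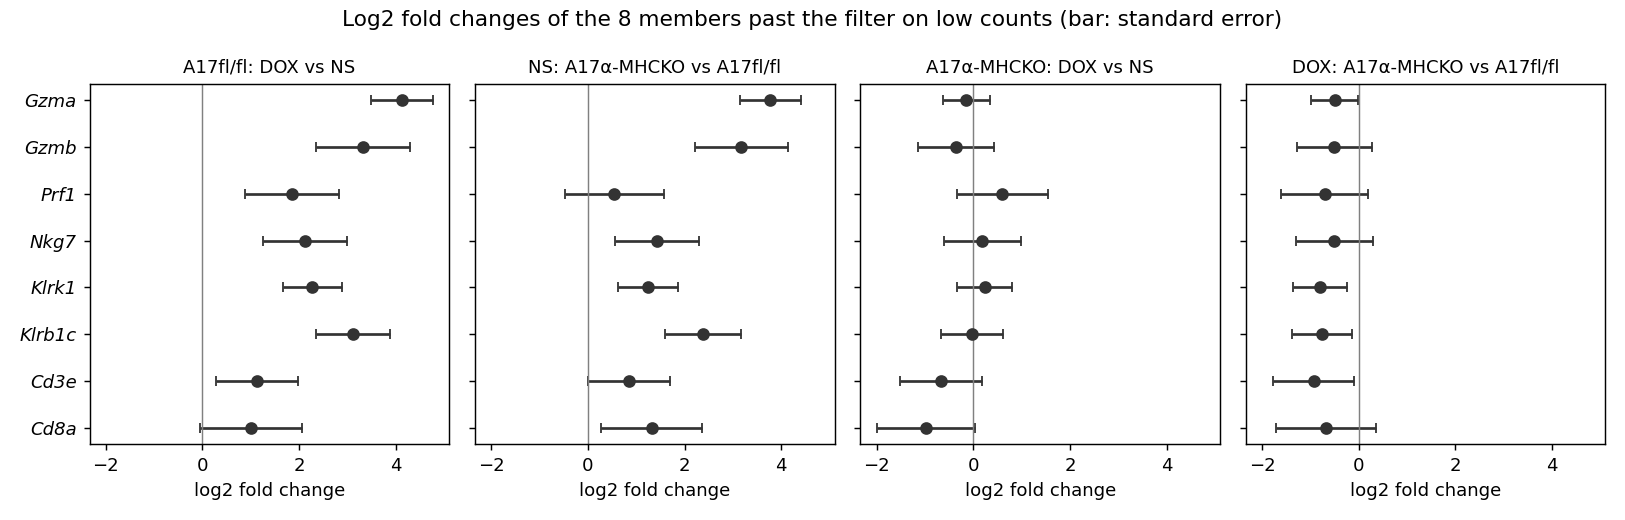
Log2 fold changes (x axis) with standard errors of the 8 members past the filter on low counts (y axis), in 1 panel per comparison. Both panels that use A17fl/fl + NS as the reference lie right of 0, with Gzma at 4.13 and 3.77, and the others lie around or just left of it.

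The other genes of cytotoxic lymphocytes, 117 granule, NK receptor, T cell and regulator genes, were on the lists beside the members, of which 115 were in the table and 71 were tested. After doxorubicin in A17fl/fl mice 3 met the limits as higher and 7 as lower, beside 0.596% and 2.22% of all genes, and the median of the 71 was 0.13. The lists differed, with medians of 0.488 for 30 T cell genes, -0.579 for 16 NK receptor genes, -0.765 for 13 granule genes and -0.218 for 12 regulators. These medians include A17fl/fl + NS replicate 1. The groups were apart with DOX higher in 13 of the 71, beside 7.15% of all genes, and with DOX lower in 3, beside 983 of 16101. In the genotype comparison after saline 4 were higher and 4 lower, beside 0.671% and 2.32%. Without A17fl/fl + NS replicate 1, 74 were tested. With doxorubicin 2 were then called higher (Cx3cr1 and Trbc2) and 0 lower, beside 0.597% and 0.646% of all genes. For genotype after saline 1 was called higher (Cx3cr1) and 0 lower, beside 0.707% and 0.841%. No lower call was left without that library. None of the 71 had an adjusted p under 0.05 in edgeR in any comparison, beside 0% of all genes for both doxorubicin effects and for the difference between them, 0.0186% for genotype after saline and 0.00621% for genotype after DOX. In the other 2 comparisons none met the limits by edgeR or DESeq2, and 1 of 71 had an unadjusted p under 0.05 in each. For the difference between the doxorubicin effects 6 of 71 had an unadjusted p under 0.05, beside 5.99% of all genes.

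Cx3cr1, the fractalkine receptor of NK cells, effector T cells and macrophages, was the gene of these lists with the smallest p in both comparisons. It was at 2.77, 1.97 and 3.38 CPM in A17fl/fl + NS, 6.59, 11.2 and 9.25 in A17fl/fl + DOX, 4.13, 10 and 9.92 in A17α-MHCKO + NS and 6.60, 8.83 and 11.2 in A17α-MHCKO + DOX. The saline floxed libraries were below the other 9, with log2 fold changes of 1.73 ± 0.37 (adjusted p = 0.299, edgeR) for doxorubicin and 1.57 ± 0.37 (adjusted p = 0.2445, edgeR) for genotype after saline. Without replicate 1 of that group they were 1.75 and 1.59, and Cx3cr1 still met the limits. Ccl5, a chemokine that cytotoxic cells store and release, was at 0.865, 0.837 and 1.88 CPM in A17fl/fl + NS and at 4.33, 4.49 and 1.36 in A17fl/fl + DOX, with a log2 fold change of 1.51 ± 0.57 (adjusted p = 0.416, edgeR). It was at 2.53, 4.61 and 3.02 CPM in A17α-MHCKO + NS, 1.51 ± 0.57 on the log2 scale (adjusted p = 0.404, edgeR), and without the saline library that stood apart it met the limits in neither comparison. Ptprcap, a lymphocyte phosphatase-associated protein, met the limits in both comparisons and Trac, the T cell receptor α constant gene, in that of genotypes, and both lost the call without that library.

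Partners of the members in their complexes follow. For the CD3 chains Cd3d and Cd3g the log2 fold changes with doxorubicin in A17fl/fl mice were 0.00 and 0.60, for Cd8b1, the CD8 β chain, 0.08, for Cd247, the ζ chain, 0.21, and for Cd4 0.22 (adjusted p between 0.829 and 0.998, edgeR). Without A17fl/fl + NS replicate 1, Cd3g was at 0.06, Cd8b1 at -0.28 and Cd247 at -0.10. Trbc2, the T cell receptor β constant gene, was at 0.89 (adjusted p = 0.633, edgeR) with all libraries, and without that one it was at 1.61 and met the limits (adjusted p = 0.474, edgeR). Klre1, an NK receptor below the filter, had 0 counts in every A17fl/fl + NS library, 3, 6 and 10 in A17fl/fl + DOX, 5, 2 and 3 in A17α-MHCKO + NS and 5, 0 and 9 in A17α-MHCKO + DOX. Klrc1, the partner of Klrd1 in the CD94 and NKG2A receptor, had at most 8 counts in any library and overlapped between all groups. Il2rb, the receptor chain for interleukins 2 and 15, was at 1.42 (adjusted p = 0.455, edgeR), and Ctsw, a cathepsin of cytotoxic cells, at 1.47 (adjusted p = 0.527, edgeR).

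Of the granzymes outside the members, Gzmm did not share the pattern of Gzma and Gzmb. It was at 4.22 to 7.59 CPM in 11 libraries and at 1.38 in A17fl/fl + NS replicate 1. With doxorubicin in A17fl/fl mice its log2 fold change was 0.05 (adjusted p = 0.974, edgeR), and -0.38 without that library. Gzmk had at most 5 counts except for 15 in A17α-MHCKO + DOX replicate 3, too few to show a pattern. The signalling adaptors Hcst (DAP10) and Tyrobp (DAP12), which myeloid cells also use, were at 5.94 and 109.6 CPM in the neutrophil-rich library and at no more than 1.40 and 25.0 CPM elsewhere. Hcst was among the genes called lower with doxorubicin and turned to 0.19 without that library, and Nfil3, a factor of NK cell development also called lower, at -1.68 (adjusted p = 0.416, edgeR), lost the call without it. Srgn, Ccl3 and Ccl4, called lower in both comparisons, were likewise high in that library alone, with Ccl4 at 2293 counts there and at most 12 elsewhere.

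Of the regulators, Tbx21, which encodes T-bet, was below the filter, with 4, 2 and 0 counts in A17fl/fl + NS, 17, 4 and 6 in A17fl/fl + DOX, 5, 13 and 3 in A17α-MHCKO + NS and 3, 0 and 16 in A17α-MHCKO + DOX. Eomes, the related T-box factor, had at most 7 counts in any library. Runx3 and Zeb2, also expressed outside lymphocytes, were at -0.34 and -0.29 with doxorubicin in A17fl/fl mice (adjusted p = 0.795 and 0.690, edgeR), and at 0.16 and -0.02 without A17fl/fl + NS replicate 1. Of 35 genes that recruit, activate or restrain these cells, 34 were in the table and 26 were tested. With doxorubicin in A17fl/fl mice 1 met the limits as higher and 4 as lower, beside 0.596% and 2.22% of all genes, and for genotype after saline 0 and 3 did, beside 0.671% and 2.32%. Without A17fl/fl + NS replicate 1, 2 were higher (H2-K1 and H2-D1) and 0 lower with doxorubicin, and 2 higher (H2-K1 and B2m) and 0 lower for genotype after saline. The higher one with all libraries was H2-K1, a class I molecule that presents peptides to CD8 T cells, at 1.24 ± 0.32 (adjusted p = 0.334, edgeR), and at 1.58 without that library. B2m, the class I light chain, was at 0.65 (adjusted p = 0.455, edgeR), and H2-T23, the ligand of CD94 receptors, at 0.26 (adjusted p = 0.765, edgeR), against 0.55 without it. For genotype after saline B2m was at 1.05 without that library and met the limits. Il15, the cytokine that maintains NK cells, was at -0.14, the chemokines Cxcl9 and Cxcl10 at 0.63 and 0.33, and Serpinb9, the granzyme B inhibitor, at 0.36 (adjusted p between 0.468 and 0.921, edgeR). Without A17fl/fl + NS replicate 1, Il15 was at -0.43, Cxcl9 at 1.26, Cxcl10 at 2.21 and Serpinb9 at 0.34, and none of these met the limits.

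Marker lists of other cells were set beside the members. The 12 B cell markers summed to 4.27, 25.2 and 16.6 CPM in A17fl/fl + NS and to 14.3 to 28.6 CPM in the other 9 libraries, so that replicates 2 and 3 lay inside the range of the others. The other T cell genes summed to 27.8, 22.2 and 27.8 CPM in A17fl/fl + NS and to 23.4 to 46.0 CPM elsewhere. The A17fl/fl + DOX sums, at 36.2, 29.8 and 28.4 CPM, lay above all of A17fl/fl + NS. Both A17α-MHCKO groups overlapped with A17fl/fl + NS. The 5 thymocyte markers summed to between 2.51 and 4.37 CPM in all libraries. Only 1 to 3 of the 5 had a count in any library, and 1 was tested, so the sum rests on few genes. Atrial markers varied widely, at 48.9, 3648 and 52.1 CPM in A17fl/fl + NS and from 456.8 to 2818 CPM elsewhere. Replicates 1 and 3 of A17fl/fl + NS thus lay below all libraries of the other groups. Whether differences in the piece of tissue taken play a part in the members' levels was not tested.

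**Figure D4:**
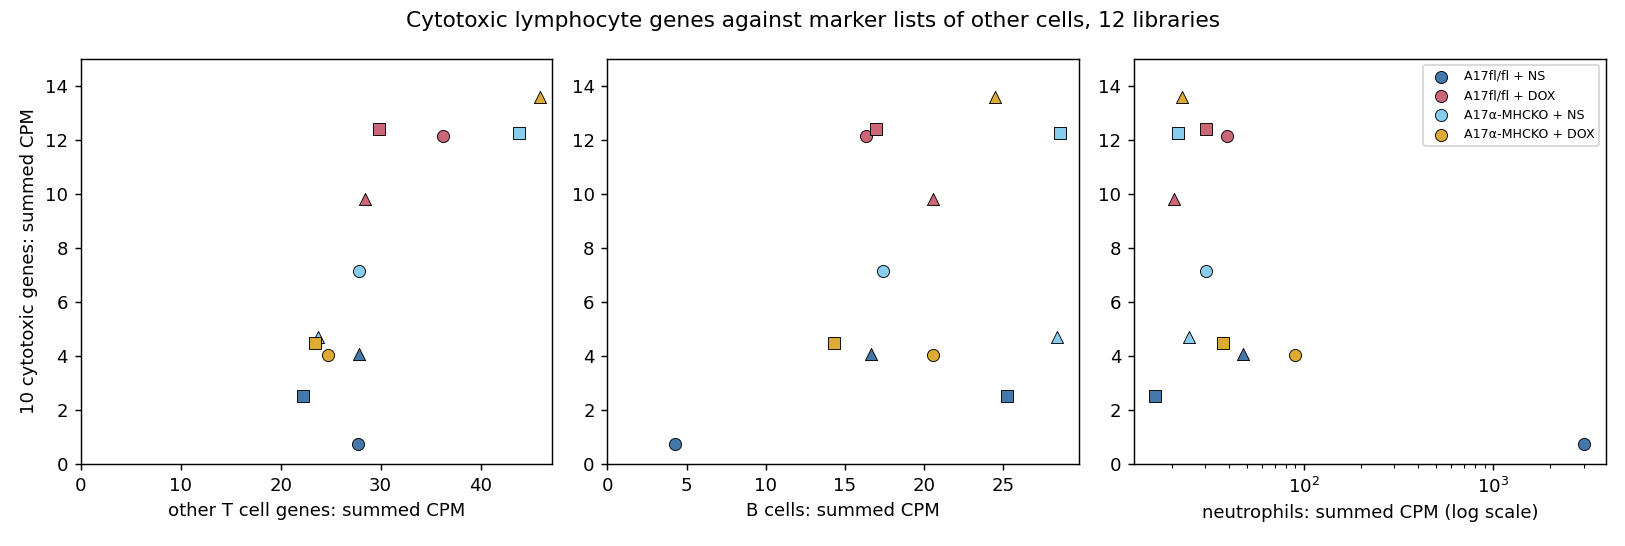
Summed CPM of the 10 members (y axis) against the summed CPM of other T cell genes, B cell markers and neutrophil markers (x axes, the last on a log scale), with 1 point per library, coloured by group and shaped by replicate (circle 1, square 2, triangle 3). The circle of A17fl/fl + NS lies apart at 3013 CPM of neutrophil markers, and the other A17fl/fl + NS points, at 25.2 and 16.6 CPM of B cell markers, lie among the other libraries on that axis.

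Across the 12 libraries the log2 CPM of Gzma correlated most with that of Nkg7 among the members (r = 0.875), then with Klrk1 (0.842) and Ncr1 (0.767), and least with Prf1 (0.38). These values are descriptions and rest in part on the low saline floxed group: over the 9 other libraries they were 0.721, 0.651, 0.66 and 0.836. The order changed there, with Klrb1c (0.874) and then Prf1 most like Gzma, and Klrd1 (0.166) and then Gzmb (0.384) least. Of 15796 genes at a mean of at least 0.5 CPM, those most like Gzma over the 12 libraries were Pde9a (r = 0.941), a cGMP phosphodiesterase, Dok4 (0.934), an adaptor protein, Casp2 (0.931), a caspase, Gdpd1 (0.929) and Slitrk6 (0.923), none of them a gene of the lymphocyte lists. With so many genes over 12 libraries, values of this size are a ranking only.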

How the data were processed

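Libraries were stranded, from mRNA, and read from both ends, and the authors used StringTie for the counting and edgeR with TMM for the comparisons. The submitters' processing notes name GRCm39, CASAVA 1.8, HISAT2 and SAMtools 1.3.1. The authors deposited 1 table of raw counts and FPKM for each of the 12 mice, and all of its value columns were used. Deposited counts entered every test. The FPKM deposited by the authors served only for the expression limit and for levels between genes.

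Genes were kept with filterByExpr and fitted in edgeR 4.0.16 (R 4.3.3) by quasi-likelihood with 1 mean per group, and p-values were adjusted by Benjamini-Hochberg over 16101 genes. CPM were scaled by TMM. The alternatives were DESeq2 1.42.0, other normalization, filters and limits, fits of 2 groups, a replicate block and leaving out each library. The procedure was tested on simulated data. At these depths, 15950717 to 21725076 counts, no member exceeded 60 counts in any library. Same-numbered libraries did not deviate together (correlations from -0.127 to 0.201), so numbers were not taken as pairs.

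The members and lists were chosen with earlier results of these data known. The text names the members, their partners, regulators and ligands, up to 5 called genes of the other lymphocyte lists per comparison by smallest p, and the 5 genes most like Gzma. Ptprcap, Trac, H2-K1 and H2-D1 were called under 1 setting or more and were named after their values were seen. Of the T cell list, 1 gene is not reported here and was left out of the counts and sums of its list.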

Additional observations from a re-analysis of the deposited data

Results flagged for a closer look

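In the test of the difference between the doxorubicin effects of the genotypes (edgeR), 6 of 71 genes of the other lymphocyte lists had an unadjusted p under 0.05, beside 5.99% of all genes, and 2 of them also met the limits on fold and FPKM, 1 higher and 1 lower, beside 1.47% and 0.658%. None passed after adjustment (edgeR, adjusted p = 0.828 for both). Cx3cr1 differed by -1.59 on the log2 scale (unadjusted p = 0.00872, edgeR). The A17fl/fl + NS libraries enter this difference, and their Cx3cr1 levels were below those of all other libraries. Without A17fl/fl + NS replicate 1 the difference was -1.61, and the genotype comparison after DOX was at -0.02. Ccl4 differed by 6.31 (unadjusted p = 0.0485, edgeR), and it was high in that library, with 2293 counts.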

How the results depend on the processing

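Members' medians kept their sign under the other normalization, without the filter on low counts, in DESeq2 and in the 2-group fits, which give no difference of effects. No member had 10 counts in every library, so that limit gave no values for them. Without A17fl/fl + NS replicate 1 the medians cover 9 members. Leaving out 1 library at a time, they ranged from 1.89 to 2.61 (doxorubicin in A17fl/fl), -0.92 to 0.51 (doxorubicin in A17α-MHCKO), 0.84 to 1.88 (genotype after NS), -1.46 to -0.27 (genotype after DOX) and -3.39 to -1.40 (difference of the effects). Calls among the other lymphocyte genes then ranged from 2 to 15, 0 to 0, 1 to 14, 0 to 1 and 1 to 9, with the lowest counts, 2, 1 and 1, in the comparisons that use A17fl/fl + NS, without replicate 1 of that group, and the highest without its replicate 3.

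These calls, 10 for doxorubicin in A17fl/fl, fell to 7 in DESeq2, 6 with at least 10 counts in every library, 3 in a fit of 2 groups and 0 at an adjusted p under 0.05, and were 19 without the FPKM limit. The 8 for genotype after NS became 3, 3 and 0 with the count limit, the 2-group fit and the adjusted p. The 2 for the difference of effects became 1 in DESeq2, 1 with the count limit, 6 without the FPKM limit and 0 at the adjusted p. With the replicate block, which the numbers do not warrant as a pairing, they were 4, 4 and 1, the members' medians were 2.34, -0.13, 1.64, -0.82 and -2.48, and calls over all genes were 281, 99, 333, 33 and 290 against 454, 106, 482, 33 and 343. The cause was not tested.

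For genes called with or without it, the sign changed in 12 cases, all without A17fl/fl + NS replicate 1, which gave the value after "to" in each range over left-out libraries, except the last, where it gave the first. For doxorubicin in A17fl/fl these ran from -2.47 to 0.19 (Hcst), -7.21 to 6.20 (Ccl3), -2.75 to 0.37 (Srgn), -2.10 to 0.09 (Fcgr3), -3.13 to 0.87 (Ccl2) and -6.82 to 0.88 (Ccl4). For genotype after NS they ran from -7.97 to 5.87 (Ccl3), -2.84 to 0.28 (Srgn), -3.86 to 0.14 (Ccl2), -6.98 to 0.73 (Ccl4) and -4.01 to 1.21 (Il18rap), and for the difference of effects from -0.82 to 6.89 (Ccl4). The members had few counts in each of 3 mice a group, and nothing says whether replicate mice shared a preparation day.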
